A study of Homo sapiens with 8 samples.

Results

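The genes described here are 37 type I interferon response genes, chosen by name: interferon-stimulated genes together with the STAT and IRF transcription factors that switch them on. Of the 37, 36 were measured among the 13546 genes of the table, and USP18, the protease that removes ISG15 from proteins, was not analysed here. Their RNA was read in xenograft tumours of MDA-MB-231, a human cell line of triple-negative breast cancer, carried by nude mice. The libraries are labelled CDK4KO (4) and CDK4WT (4), and CDK4 encodes a kinase partner of D-type cyclins that acts on RB before S phase. No treatment, time or animal age is given in the labels, nor whether each genotype was 1 clone or how CDK4 was disrupted. Nude mice lack mature T cells and keep innate immune cells, and separate mice for the 8 tumours are not stated in the labels.

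Library totals ran from 27841000 to 33618000 counts. CDK4 mRNA was 122 CPM (read counts scaled to library size) ± 9.66 in CDK4KO and 113 CPM ± 4.04 in CDK4WT tumours (SD, n = 4 each), so its level was not lower in CDK4KO and does not check the labels, whose names are used here as given. Markers of the tumour line were high in all 8 libraries, with VIM at 7807 to 11085 CPM in CDK4KO and 8927 to 11510 CPM in CDK4WT, and ESR1 and PGR were not analysed here. The summed level of 5 measured leukocyte markers of 10 listed was 20.3 to 22.0 CPM in CDK4KO and 16.6 to 28.4 CPM in CDK4WT, and PTPRC, which marks all leukocytes, was 2.26 to 3.39 CPM in CDK4KO and 2.53 to 4.32 CPM in CDK4WT. Endothelial markers (6 of 8 measured) summed to 313 to 373 CPM in CDK4KO and 247 to 286 CPM in CDK4WT, and muscle and fat markers (3 of 7) to 5.22 to 9.39 CPM in CDK4KO and 9.43 to 28.3 CPM in CDK4WT. Most of the endothelial sum came from ROBO4 (132 to 188 CPM in CDK4KO, 100 to 115 CPM in CDK4WT) and ESAM (155 to 164 CPM in CDK4KO, 125 to 150 CPM in CDK4WT), and PECAM1, KDR, TEK and VWF were far lower and overlapped. The part of these differences in the genotype comparison was not tested. In such bulk RNA, fewer expressing cells and less RNA per cell cannot be told apart.

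Type I interferons bind the receptor made of IFNAR1 and IFNAR2, whose kinases JAK1 and TYK2 phosphorylate STAT2. With IRF9, STAT2 takes part in the complex ISGF3, which binds a short DNA element, the interferon-stimulated response element (ISRE), in front of its target genes. The proteins made in response sense viral RNA, degrade or sequester it, or hold viruses at membranes.

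The ISRE is shown first because it is the sequence through which ISGF3 finds its targets. Promoters of RefSeq (GRCh38.p14, 250 bases before to 50 after the start) were found for 30 of the 36 measured genes. The core GAAANNGAAA was searched on both strands, where the reverse strand reads TTTCNNTTTC and overlapping matches each count. It was found in 20 of these 30 promoters, or 66.7%, against 2.92% of 10667 promoters of genes in the table. A match is a run of letters and not a bound site. The lack of a match to this fixed spacing does not show that a promoter lacks an ISRE. The 250 bases before the start are given for 5 genes, with the matches in capitals. OAS1 stood out most in a single tumour and has no match. Near its end the OAS1 stretch reads gaaacgaaa, whose GAAA repeats stand closer together than the pattern allows. DDX60, IFIT1 and ISG15 stood out in the same tumour, and IFITM3 has matches and did not stand out there.
OAS1 (chr12:112906712-112906961, plus strand): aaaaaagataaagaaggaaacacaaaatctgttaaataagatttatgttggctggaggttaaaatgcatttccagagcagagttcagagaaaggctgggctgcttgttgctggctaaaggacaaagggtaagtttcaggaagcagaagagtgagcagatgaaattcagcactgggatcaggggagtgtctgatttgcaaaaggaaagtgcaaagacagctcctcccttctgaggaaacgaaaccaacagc
DDX60 (chr4:168318753-168319002, minus strand): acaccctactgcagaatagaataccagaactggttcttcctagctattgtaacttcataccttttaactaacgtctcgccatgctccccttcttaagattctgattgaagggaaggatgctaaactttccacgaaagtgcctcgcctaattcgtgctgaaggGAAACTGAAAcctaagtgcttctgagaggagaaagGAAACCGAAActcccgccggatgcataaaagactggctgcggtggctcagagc
IFIT1 (chr10:89392373-89392622, plus strand): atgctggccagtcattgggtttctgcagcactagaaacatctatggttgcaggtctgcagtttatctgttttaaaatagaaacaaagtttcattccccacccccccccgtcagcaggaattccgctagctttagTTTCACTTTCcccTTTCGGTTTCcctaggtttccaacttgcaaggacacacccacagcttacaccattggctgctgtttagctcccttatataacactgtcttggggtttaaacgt
ISG15 (chr1:1013247-1013496, plus strand): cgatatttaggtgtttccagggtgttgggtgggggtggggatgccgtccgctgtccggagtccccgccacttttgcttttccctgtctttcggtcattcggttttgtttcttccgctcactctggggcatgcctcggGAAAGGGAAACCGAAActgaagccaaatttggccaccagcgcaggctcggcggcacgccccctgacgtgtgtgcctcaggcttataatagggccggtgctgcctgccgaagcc
IFITM3 (chr11:320861-321110, minus strand): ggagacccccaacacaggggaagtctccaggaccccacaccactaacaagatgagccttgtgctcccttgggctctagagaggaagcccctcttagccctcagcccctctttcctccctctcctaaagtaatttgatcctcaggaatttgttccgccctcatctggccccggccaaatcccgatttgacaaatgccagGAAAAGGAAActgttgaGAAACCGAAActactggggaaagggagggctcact

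The 36 genes stood at very different levels. Every gene of the table exceeds 1 CPM in at least 4 libraries, so that these genes were expressed follows from their being in it. Per kilobase of annotated exon, BST2, the tetherin that holds virions at the cell surface, and IFITM3, which blocks virus entry from endosomes, were the most abundant, at 121 and 117 CPM per kilobase over the 8 libraries. ISG15, the ubiquitin-like modifier, followed at 36.8 CPM per kilobase, then IFI44 at 29.8, IFIT3 at 27.9 and STAT2 at 27.7. At the other end stood SP110 at 1.5, RIGI at 1.06 and MX1 at 0.508 CPM per kilobase. The raw counts behind MX1, the antiviral GTPase, were 85 to 289 reads per library. RIGI, the RNA helicase that detects viral 5′-triphosphate RNA, had 100 to 169 reads.

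No member passed the comparison of CDK4KO with CDK4WT. Over all 13546 genes, 0 of 36 had an adjusted p under 0.05 (edgeR quasi-likelihood test, smallest adjusted p = 0.201), against 0.0591% of all genes. DESeq2 and limma voom with library weights called 0 of 36 as well, against 2.33% and 2.1% of all genes. At an unadjusted p of 0.05 there were 4 of 36, 3 higher and 1 lower in CDK4KO, where 6.64% and 6.33% of all genes were higher and lower. The median log2 fold change, CDK4KO minus CDK4WT, was 0.02 over the members and 0.00 over all genes, with 21 members above and 15 below zero. The genotypes did not overlap in 3 of 36 members, against 7.68% of all genes. IRF2 and PARP14 were higher in all 4 CDK4KO tumours, against 3.87% of all genes, and RIGI was lower in all 4, against 3.81%.

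**Figure D1:**
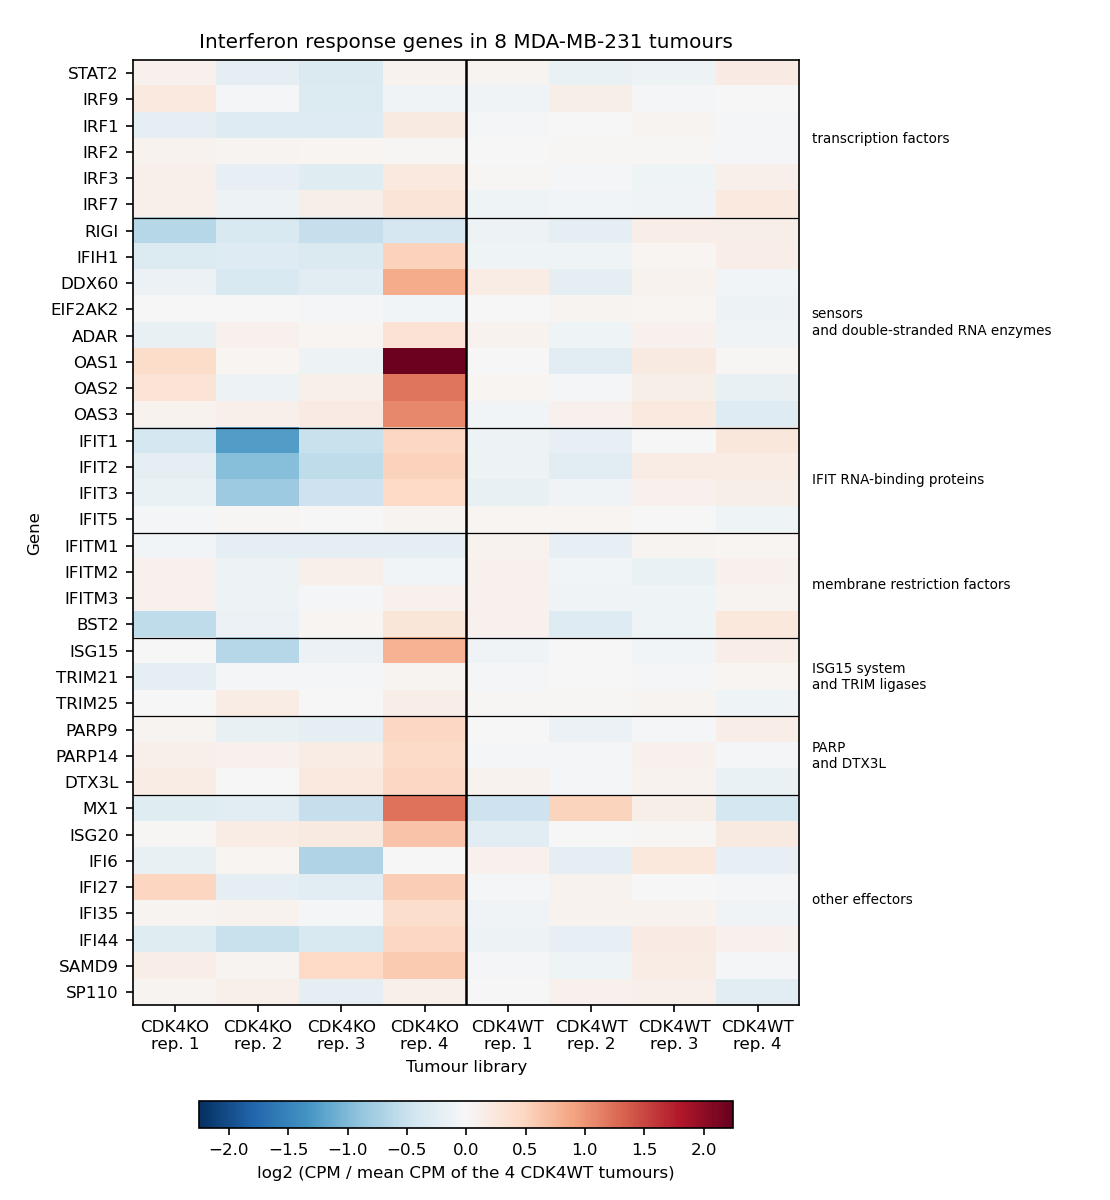
Heat map of the 36 measured genes (rows, grouped by role) in the 4 CDK4KO and 4 CDK4WT tumours (columns). Colour is log2 of CPM over the mean CPM of the 4 CDK4WT tumours. The column of CDK4KO replicate 4 is red in the OAS genes, MX1, DDX60 and ISG15, IFIT1 to IFIT3 are bluest in CDK4KO replicate 2, and STAT2, IRF9 and the IFITM genes are pale throughout.

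Many members stood high in 1 tumour. CDK4KO replicate 4 was the highest of the 8 libraries in 25 of 36 members, against 17.8% of all genes. It lay at least 1 above the median of the other 3 CDK4KO libraries on the log2 CPM scale in 5 of 36 members, against 0.635% of all genes. None of the other 7 libraries lay that far above or below the rest of its genotype in any member. Over all genes the shares in these 7 were 0.133% to 0.893% above and 0.0738% to 1.11% below, so a count of none is near them. At 0.5 or more, a limit set after seeing the values, there were 13 of 36 members, against 3.68% of all genes. The last inside this limit was PARP9 at 0.63, and ISG20 and IRF1, both at 0.48, lay just outside. The median deviation of the members was 0.36 in CDK4KO replicate 4 and between -0.12 and 0.09 in the other 7 libraries.

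**Figure D2:**
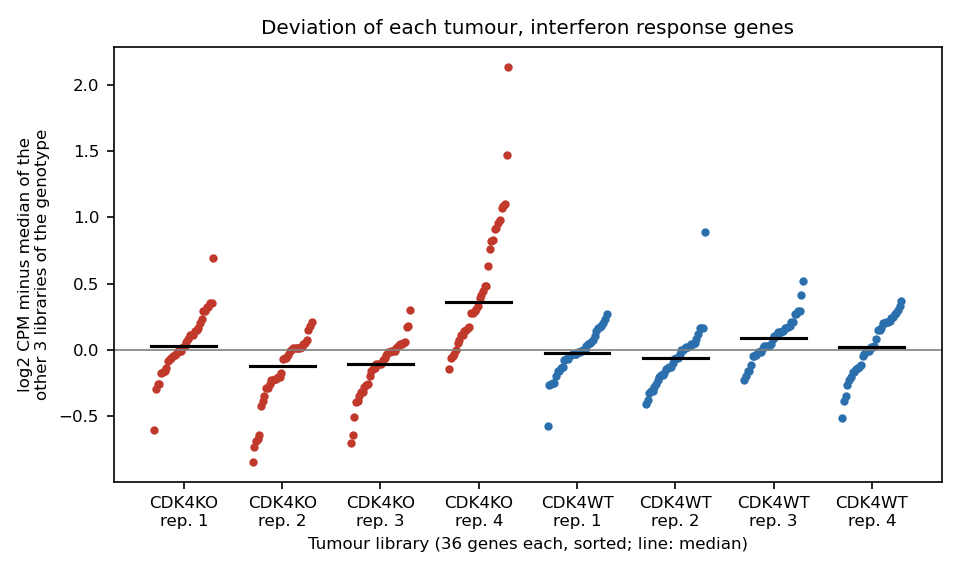
Deviation of each tumour library (horizontal axis) from the median of the other 3 libraries of its genotype, in log2 CPM (vertical axis). Each point is 1 of the 36 genes, sorted within a library, and the line is the median. Only in CDK4KO replicate 4 do genes reach 1 or more, with OAS1 at 2.14.

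None of the 6 transcription factors lay 0.5 or more above in CDK4KO replicate 4, against 3.68% of all genes, so this count is close to that share. IRF1 came nearest to the limit, at 0.48. STAT2, the ISGF3 subunit specific to type I and III interferons, had 187, 150, 139 and 183 CPM in CDK4KO replicates 1 to 4, against 181, 156, 161 and 197 CPM in CDK4WT replicates 1 to 4. IRF9, the DNA-binding subunit of ISGF3, had 9.61, 8.12, 6.68 and 7.85 CPM in CDK4KO and 7.81, 9.06, 8.11 and 8.22 CPM in CDK4WT, and both genes overlapped between the genotypes. Their log2 fold changes were -0.08 ± 0.11 and -0.04 ± 0.12 (SE; edgeR adjusted p = 0.798 and 0.914). Annotated exons of IRF9 share 48.4% of their bases with another gene model on the same strand, which leaves its count uncertain.

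IRF1, an early interferon-induced activator, had 26.4, 25.2, 25.3 and 35.4 CPM in CDK4KO, against 30.3, 30.5, 32.0 and 30.3 CPM in CDK4WT. CDK4KO replicate 4 was thus above all CDK4WT tumours and the other 3 CDK4KO tumours below them. IRF2, which competes with IRF1 for its sites, differed little in size although its genotypes did not overlap, at 32.5 CPM ± 0.379 in CDK4KO and 31.3 CPM ± 0.581 in CDK4WT (SD, n = 4 each; log2 fold change 0.06 ± 0.06, edgeR adjusted p = 0.709). IRF3, which is switched on by phosphorylation after RNA or DNA sensing, and IRF7, which amplifies interferon production, had log2 fold changes of -0.02 ± 0.10 and 0.11 ± 0.10, with overlapping genotypes. Exons of IRF1 and IRF3 overlap genes on the opposite strand (22.0% and 19.3% of their bases), and whether the counting used strand is not given in the sources used here.

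The 3 OAS genes make 2-5A synthetases, enzymes that answer double-stranded RNA by making the messenger that turns on RNase L. OAS1 had 8.55, 6.68, 5.98 and 29.7 CPM in CDK4KO replicates 1 to 4, against 6.41, 5.46, 7.43 and 6.55 CPM in CDK4WT. The value of CDK4KO replicate 4 was 4.59 times the CDK4WT mean, while the other 3 CDK4KO tumours overlapped CDK4WT. Ranked by deviation of CDK4KO replicate 4 among 11440 genes with an average log2 CPM of at least 2, OAS1 came 3rd. OAS2 had 47.8, 35.3, 41.5 and 88.7 CPM in CDK4KO and 39.5, 37.9, 42.3 and 34.1 CPM in CDK4WT. OAS3 had 43.9, 45.0, 46.8 and 87.7 CPM in CDK4KO and 39.5, 44.1, 48.5 and 33.7 CPM in CDK4WT. In both, CDK4KO replicate 4 was more than 2 times the CDK4WT mean (2.31 and 2.12 times) and the remaining libraries overlapped.

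Those values gave the OAS genes the largest positive log2 fold changes of the list with wide errors, 0.98 ± 0.51 for OAS1, 0.47 ± 0.27 for OAS2 and 0.43 ± 0.23 for OAS3 (SE; edgeR adjusted p = 0.460, 0.504 and 0.477). Without CDK4KO replicate 4 they were 0.13 ± 0.15, 0.11 ± 0.11 and 0.13 ± 0.11. The 3 genes lie side by side on chromosome 12, OAS1 from 112906777 to 112933222, OAS3 from 112938352 to 112973249 and OAS2 from 112978395 to 113011723 (hg38, GENCODE 29). PTPN11, a phosphatase gene some distance before them at 112418351 to 112509913, had 418 CPM in CDK4KO replicate 4, within the 362 to 425 CPM of the other CDK4KO tumours. OASL, a 2-5A synthetase relative outside the list on the same chromosome at 121019111 to 121039242, had 33.5, 18.7, 27.3 and 108 CPM in CDK4KO, against 36.4, 33.6, 41.9 and 46.0 CPM in CDK4WT, and ranked 6th by the same deviation.

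**Figure D3:**
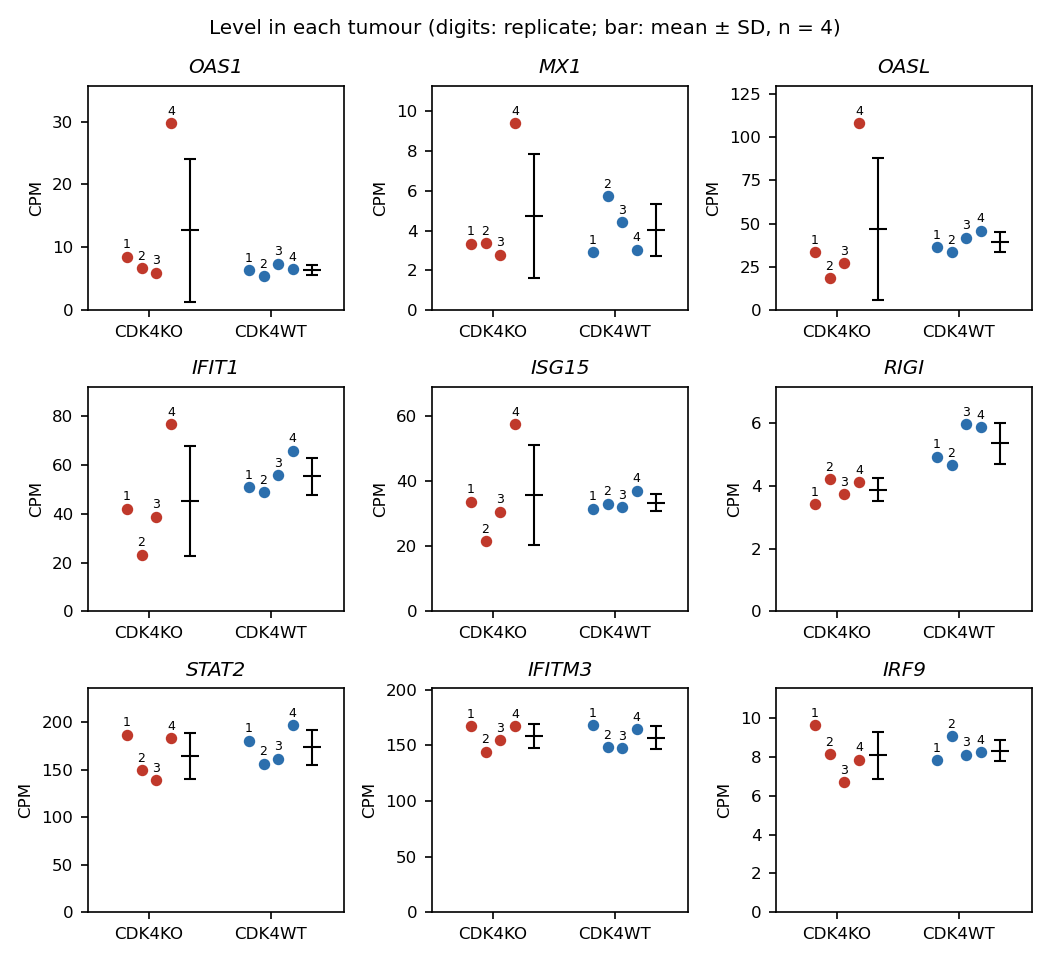
Level in CPM (vertical axis, linear from 0) of 9 genes in each CDK4KO (left) and CDK4WT (right) tumour, with the replicate number over each point and mean ± SD beside it (n = 4). OAS1, MX1, OASL, IFIT1 and ISG15 are highest in CDK4KO replicate 4, RIGI is lower in all CDK4KO tumours, and STAT2, IFITM3 and IRF9 overlap between the genotypes.

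Among the RNA sensors, DDX60 and IFIH1 stood high in CDK4KO replicate 4, as the OAS genes did, and RIGI did not. DDX60, a helicase that promotes RIG-I-like receptor signalling, had 28.9, 24.8, 26.8 and 56.1 CPM in CDK4KO, against 35.6, 27.0, 33.5 and 30.3 CPM in CDK4WT. Its neighbour and relative DDX60L had 38.6 CPM in CDK4KO replicate 4 and 32.0 to 37 CPM in the other CDK4KO tumours. IFIH1, the long double-stranded RNA sensor MDA5, had 11.8, 11.9, 11.7 and 21.0 CPM in CDK4KO and 13.6, 13.6, 15.0 and 16.1 CPM in CDK4WT. In IFIH1 the other 3 CDK4KO tumours lay below all CDK4WT tumours and CDK4KO replicate 4 above all of them. Without CDK4KO replicate 4, DDX60 and IFIH1 had log2 fold changes of -0.24 ± 0.10 and -0.31 ± 0.09 (SE), while OAS1, OAS2 and OAS3 stood at 0.13, 0.11 and 0.13.

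RIGI had 3.42, 4.21, 3.72 and 4.12 CPM in CDK4KO, against 4.92, 4.66, 5.95 and 5.86 CPM in CDK4WT. It was lower in all 4 CDK4KO tumours, at 3.87 CPM ± 0.368 in CDK4KO and 5.35 CPM ± 0.654 in CDK4WT (SD, n = 4 each). Its log2 fold change of -0.47 ± 0.13 had the smallest p of the list and did not pass (edgeR unadjusted p = 0.00545, adjusted p = 0.201). It stayed between -0.53 and -0.41 when each library was left out. Of 36 members, RIGI had the second lowest level per kilobase, so the counts behind it are small. MAVS, the mitochondrial adaptor that relays RIG-I and MDA5 signals, went the other way outside the list, at 297 CPM ± 22.7 in CDK4KO and 252 CPM ± 15.7 in CDK4WT (log2 fold change 0.24 ± 0.07, edgeR adjusted p = 0.224).

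EIF2AK2, the kinase PKR that halts translation on double-stranded RNA, was level across the tumours, at 116 to 122 CPM in CDK4KO and 112 to 126 CPM in CDK4WT. ADAR, the editing enzyme that marks double-stranded RNA as self, had 208, 248.8, 241 and 294 CPM in CDK4KO, against 248, 217, 248 and 220 CPM in CDK4WT. CDK4KO replicate 4 was the highest and CDK4KO replicate 1 the lowest of the 8, and the log2 fold change was 0.09 ± 0.10 (edgeR adjusted p = 0.741).

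The IFIT proteins bind viral RNA 5′ ends and block its translation. IFIT1 had 42.0, 23.2, 38.8 and 76.5 CPM in CDK4KO replicates 1 to 4, against 50.7, 48.8, 55.6 and 65.7 CPM in CDK4WT. IFIT2 had 61.8, 36.9, 48.6 and 103 CPM in CDK4KO and 66.7, 60.4, 80.4 and 80.4 CPM in CDK4WT. IFIT3 had 70.5, 44.1, 56.6 and 107 CPM in CDK4KO and 69.8, 73.5, 83.4 and 84.9 CPM in CDK4WT. These 3 genes were highest in CDK4KO replicate 4 and lowest in CDK4KO replicate 2, so the CDK4KO tumours spanned a wider range than CDK4WT on both sides. Summed over the 3 genes, the CDK4KO tumours had 174, 104, 144 and 287 CPM and the CDK4WT tumours 187, 183, 219 and 231 CPM.

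IFIT5 was level, at 37.5 to 40.0 CPM in CDK4KO and 36.2 to 39.6 CPM in CDK4WT. It lies in the same stretch of chromosome 10 (89414586 to 89421001) as IFIT2 (89283694 to 89309276), IFIT3 (89327894 to 89340971) and IFIT1 (89392546 to 89406486), and its promoter holds 3 matches to the ISRE core. IFIT1, IFIT2 and IFIT3 had log2 fold changes of -0.29 ± 0.31, -0.20 ± 0.29 and -0.16 ± 0.24 with all libraries (edgeR adjusted p = 0.734, 0.812 and 0.816). Without CDK4KO replicate 4 they were -0.67 ± 0.20, -0.55 ± 0.17 and -0.45 ± 0.14 and still did not pass (edgeR adjusted p = 0.225, 0.239 and 0.240). Without CDK4KO replicate 2 they were -0.07, -0.01 and 0.00.

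The IFITM genes did not follow the OAS genes and IFIT1 to IFIT3. IFITM3 had 167, 144, 154 and 167 CPM in CDK4KO, against 168, 148, 147 and 165 CPM in CDK4WT. IFITM2, its close paralog, had 38.1, 33, 38.6 and 34.3 CPM in CDK4KO and 38.1, 34.5, 32.4 and 38.4 CPM in CDK4WT. Their log2 fold changes were 0.01 ± 0.07 and 0.01 ± 0.08 (edgeR adjusted p = 0.966 and 0.985), and CDK4KO replicate 4 lay within the other libraries in IFITM2 and at the upper end in IFITM3. Of the 50-base stretches in IFITM2 transcripts, 12.9% also occur in IFITM3 and 21.6% in IFITM1, so the counts of these genes are uncertain. IFITM1 had 15.2, 13.6, 13.5 and 13.6 CPM in CDK4KO and 16.6, 13.9, 16.4 and 16.3 CPM in CDK4WT (log2 fold change -0.17 ± 0.09, edgeR adjusted p = 0.425). The IFITM3 promoter shown above holds 2 ISRE matches, as do those of IFIT1 and DDX60.

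BST2 spread widely in both genotypes, with 92.9, 126, 142 and 167 CPM in CDK4KO and 148, 113, 129 and 162 CPM in CDK4WT. CDK4KO replicate 4 was thus its highest library, 0.41 above the median of the other CDK4KO libraries in log2 CPM, and CDK4KO replicate 1 its lowest. Its log2 fold change was -0.06 ± 0.17 (edgeR adjusted p = 0.911).

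In the ISG15 system and the TRIM ligases, ISG15 stood out and the ligases did not. ISG15 had 33.7, 21.5, 30.6 and 57.4 CPM in CDK4KO, against 31.5, 33.1, 32.0 and 37.1 CPM in CDK4WT, with CDK4KO replicate 4 highest and CDK4KO replicate 2 lowest, as in the IFIT genes. TRIM25, the ubiquitin ligase that activates RIG-I, had 142, 157, 140 and 157 CPM in CDK4KO and 143, 143, 146 and 131 CPM in CDK4WT. TRIM21, the cytosolic antibody receptor, had 12.4 to 15.1 CPM in CDK4KO and 14.1 to 14.9 CPM in CDK4WT. Outside the list, HERC5, the ligase that attaches ISG15 to proteins, had 53.4, 36.6, 41.2 and 79.5 CPM in CDK4KO and 56.8, 52.3, 58.8 and 56.4 CPM in CDK4WT, high and low in the same tumours as ISG15.

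PARP14, DTX3L and PARP9, an ADP-ribosyltransferase group in which DTX3L is the ubiquitin ligase bound to PARP9, had log2 fold changes above zero with all libraries, and PARP9 stood at -0.10 without CDK4KO replicate 4. PARP14 had 67.7, 67.0, 69.9 and 83.9 CPM in CDK4KO, against 61.3, 61.2, 66.9 and 61.1 CPM in CDK4WT, and the genotypes were just apart. Its log2 fold change was 0.20 ± 0.08 with all libraries and 0.12 ± 0.06 without CDK4KO replicate 4 (edgeR adjusted p = 0.302 and 0.393). DTX3L had 55.0, 48.6, 56.7 and 67.0 CPM in CDK4KO and 51.7, 48.1, 51.5 and 43.9 CPM in CDK4WT (0.22 ± 0.10, edgeR adjusted p = 0.366, and 0.13 without CDK4KO replicate 4). PARP9, whose exons overlap those of DTX3L by 217 bases on the opposite strand, stood at 0.07 ± 0.14.

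Among the other effectors, MX1 had 3.35, 3.37, 2.80 and 9.37 CPM in CDK4KO, against 2.92, 5.72, 4.41 and 3.05 CPM in CDK4WT. Its highest value was in CDK4KO replicate 4 and its next highest in CDK4WT replicate 2. SAMD9, a growth-restraining antiviral factor, had 41.4, 38.9, 51.1 and 56.2 CPM in CDK4KO, against 36.2, 35.1, 41.8 and 36.6 CPM in CDK4WT. It overlapped through CDK4WT replicate 3 and had the second smallest p of the list (log2 fold change 0.33 ± 0.11, edgeR unadjusted p = 0.0164, adjusted p = 0.274). ISG20, an RNA exonuclease, had 29.7, 32.4, 33.3 and 45.2 CPM in CDK4KO and 24.7, 28.7, 29.4 and 33.5 CPM in CDK4WT (0.28 ± 0.13, edgeR adjusted p = 0.411, and 0.13 without CDK4KO replicate 4).

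IFI44 had 52.4, 44.6, 49.5 and 87.2 CPM in CDK4KO, against 58.4, 55.2, 71.6 and 67.2 CPM in CDK4WT, so that 3 CDK4KO tumours lay below all CDK4WT tumours and CDK4KO replicate 4 above them. IFI27, a mitochondrial protein, was high in 2 CDK4KO tumours, with 34.9, 21.6, 21.4 and 36.7 CPM in CDK4KO and 24.2 to 26.6 CPM in CDK4WT. IFI35 had 10.6 to 14.2 CPM in CDK4KO and 10.2 to 11.4 CPM in CDK4WT. IFI6, an inhibitor of apoptosis, had 4.24 to 6.95 CPM in CDK4KO and 5.87 to 8.0 CPM in CDK4WT. SP110, a nuclear body protein, had 8.85 to 11.1 CPM in CDK4KO and 8.56 to 11.1 CPM in CDK4WT. None of these passed (edgeR adjusted p from 0.616 to 0.956).

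**Figure D4:**
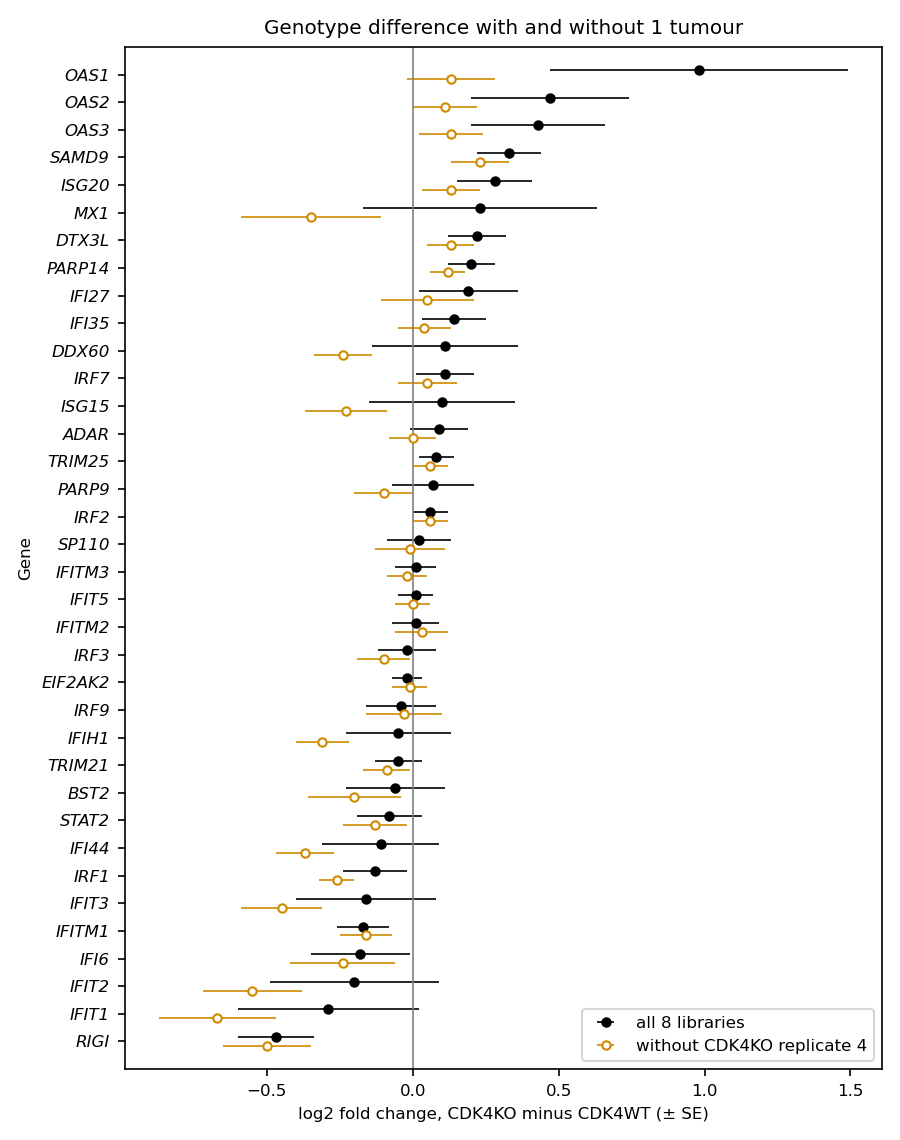
Log2 fold change, CDK4KO minus CDK4WT, of the 36 genes with all 8 libraries (filled) and without CDK4KO replicate 4 (open), with SE bars. The OAS genes move towards 0 IFIT1, IFIT2, IFIT3, IFI44 and IFIH1 move further below 0 and MX1 moves below 0 when that tumour is left out, while RIGI stays near -0.5 and SAMD9 stays above 0.

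Without CDK4KO replicate 4, 13 of 36 log2 fold changes were positive and 23 negative with a median of -0.02, and most members kept their sign. The mean log2 CPM over the 36 members differed by 0.021 between CDK4KO and CDK4WT with all libraries and by -0.107 without it. At an unadjusted p of 0.05, 8 of 36 were then lower and 1 higher in CDK4KO, against 6.81% and 6.64% of all genes, and 0 of 36 passed over all genes, against 0.125% (edgeR). Those lower were RIGI, IFIH1, DDX60, IFIT1, IFIT2, IFIT3, IFI44 and IRF1, and the one higher was SAMD9. That library was left out here after the members' values in it were known, so these values describe the other 7 libraries and are no independent test. Further fits without it, added after the data were seen, did call members lower in CDK4KO. DESeq2 called 4 of 36 (IRF1, IFIT1, IFIT2 and IFI44), against 2.44% of all genes, and limma voom with library weights called 7 of 36 (the same 4 with IFIT3, IFIH1 and ISG15), against 7.56%.

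With log2 CPM centred on the mean of each genotype, the median Pearson r between the 13 members 0.5 or more above was 0.87 over 8 libraries and 0.47 over the 7 without CDK4KO replicate 4. Between the other 23 members it was 0.19 and -0.02. The members were split by their values in CDK4KO replicate 4 against the median of the other CDK4KO libraries, which raises the r of the 13 over 8 libraries. That tumour has no part in the values over 7. The other CDK4KO libraries, used in the split, do, so the values over 7 are not free of it. The closest pair was IFIT2 with IFIT3, at 0.987 over 8 libraries and 0.958 over 7, followed by IRF1 with OAS1 (0.987 and 0.785), IFIT1 with ISG15 (0.985 and 0.963), MX1 with IFI35 (0.981 and 0.928) and IFIT1 with IFIT3 (0.972 and 0.915). The lowest were IFITM2 with TRIM25 at -0.852, IRF2 with BST2 at -0.824 and IFITM2 with SP110 at -0.771 over 8 libraries. These r were picked from 630 pairs in libraries that share their depth and scaling, and are given as a description.

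Of 11344 genes outside the lists, those most like the mean of the members over the 8 libraries, centred the same way, were PAQR5, PI4KB, MOV10, AP1S3, C1RL-AS1, PSMD4, APOL1, MYL6, AP2S1 and ESYT1, with r of 0.958 to 0.988. All 10 were highest in CDK4KO replicate 4, which follows from the choice, as the mean of the members was itself highest there. PAQR5, a membrane progestin receptor, had 18.3, 16.5, 17.5 and 29 CPM in CDK4KO and 17.2, 17.1, 20.1 and 18.5 CPM in CDK4WT. APOL1, an apolipoprotein of innate defence, had 18.1, 14.0, 16.9 and 26.1 CPM in CDK4KO and 18, 18.4, 19.0 and 19.0 CPM in CDK4WT. MOV10, an RNA helicase that restricts retroelements, had 64.0, 57.4, 58.3 and 76.0 CPM in CDK4KO and 63.9, 64.8, 67.5 and 63.2 CPM in CDK4WT. Over the 7 libraries without CDK4KO replicate 4 the r of the 10 genes ran from 0.268 for ESYT1 to 0.911 for AP2S1.

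**Figure D5:**
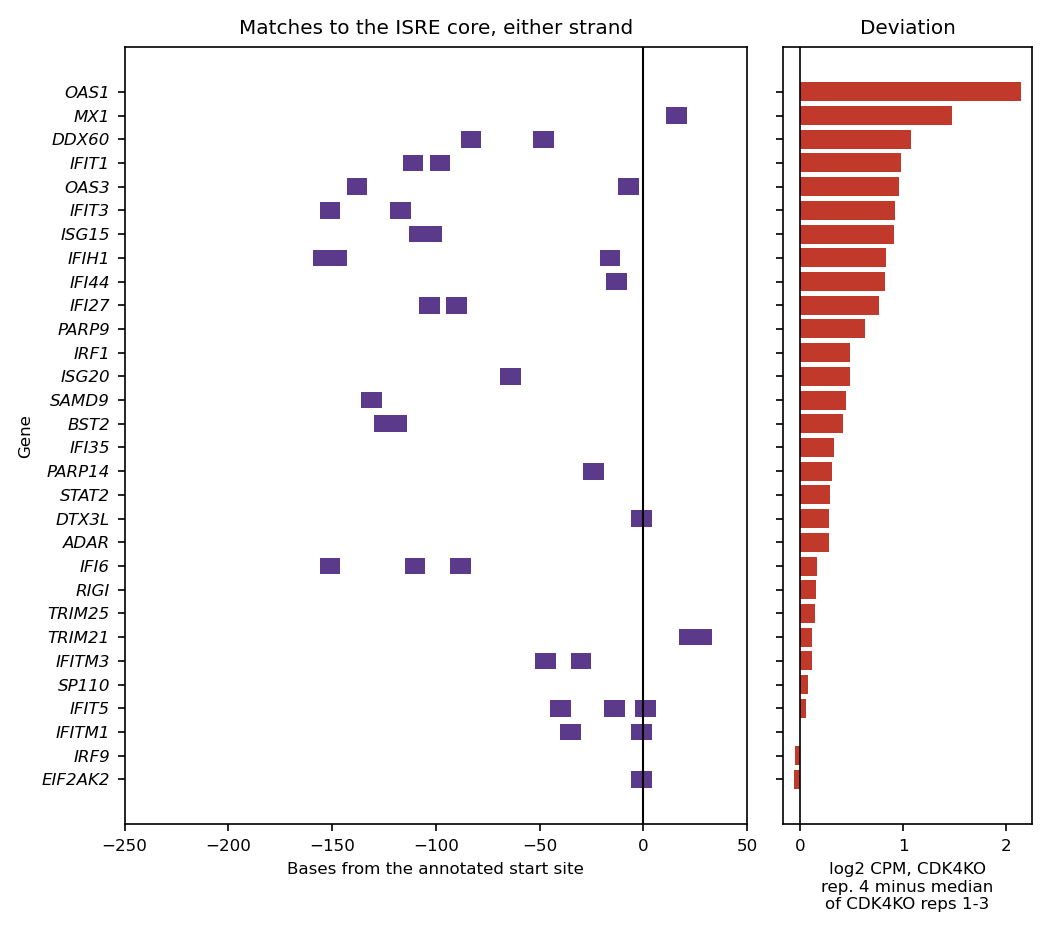
Left, matches to the ISRE core on either strand (bars of 10 bases) by distance from the annotated start, for the 30 genes with a RefSeq promoter, ordered by the deviation of CDK4KO replicate 4 shown on the right in log2 CPM. Matches stand in 9 of the 11 genes 0.5 or more above in that tumour and in 11 of the other 19. The limit of 0.5 was set after seeing the values. OAS1 at the top has none, and its GAAA repeats stand closer together than the searched pattern allows.

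Read against the promoters, 9 of 11 members that were 0.5 or more above in CDK4KO replicate 4 hold the ISRE core (81.8%), and 11 of the other 19 (57.9%). The limit was set after seeing the values, and whether the core goes with the deviation was not tested. OAS2 and IFIT2, at 1.10 and 1.09 above, had no promoter to search and are not among the 11. In ISG15 the matches overlap and begin 113 and 107 bases before the start, in IFIT1 they begin 116 and 103 bases before it and in DDX60 88 and 53. IFIT5, with 3 matches, and IFITM3, with 2, were level in that tumour, and STAT2, IRF9 and IRF1 had none in this window.

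Of 86 other genes of the pathway listed, 68 were measured, and 0 passed over all genes (edgeR smallest adjusted p = 0.224, DESeq2 and limma voom also 0), with 4 of 68 higher and 1 lower at an unadjusted p of 0.05, against 6.64% and 6.33% of all genes. None of the 9 interferon genes listed, IFNB1 among them, was measured. Among 10 receptors and kinases, IFNLR1, the interferon lambda receptor chain, had 1.21 CPM ± 0.595 in CDK4KO and 2.20 CPM ± 0.428 in CDK4WT, and IFNAR1 had 90.1 CPM ± 10 in CDK4KO and 79.3 CPM ± 3.33 in CDK4WT (SD, n = 4 each). Their log2 fold changes were -0.86 ± 0.32 and 0.18 ± 0.08 (edgeR adjusted p = 0.300 and 0.347), and IL10RB, the second lambda receptor chain, stood at -0.33 ± 0.21.

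The 8 negative regulators, among them SOCS1 and SOCS3, had log2 fold changes between -0.04 and 0.10, with PTPN11, PIAS4 and PTPN2 at 0.10 ± 0.07, 0.09 ± 0.07 and 0.10 ± 0.08. Of 14 genes of nucleic acid sensing, CGAS, the cytosolic DNA sensor, stood at 0.14 ± 0.08 and TRAF6 at 0.07 ± 0.07, beside MAVS. Of 36 further interferon-stimulated genes, TDRD7, TRIM38 and PARP12 had the smallest p, with log2 fold changes of 0.22 ± 0.08, 0.18 ± 0.07 and -0.14 ± 0.07. CDK4KO replicate 4 was the highest library in 23 of these 36, against 17.8% of all genes, and at least 1 above the median of the other CDK4KO tumours in 3, against 0.635%. Chosen after their values were seen, GBP4, an interferon-induced GTPase, had 6.05, 2.44, 5.52 and 13.5 CPM in CDK4KO and 7.21, 5.81, 8.18 and 7.52 CPM in CDK4WT, and HERC6 had 39.3 CPM in CDK4KO replicate 4, 16.3 to 23.3 CPM in the other CDK4KO tumours and 19.8 to 24.1 CPM in CDK4WT. DHX58, the RIG-I-like receptor LGP2, had 12.2, 9.93, 9.70 and 18.3 CPM in CDK4KO and 13, 12, 13.1 and 13.9 CPM in CDK4WT, and MX2, the sister of MX1, reached 3.37 CPM in CDK4KO replicate 4 against 1.25 to 1.44 CPM in the other CDK4KO tumours and 1.65 to 2.63 CPM in CDK4WT.

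Markers of other cells were set beside CDK4KO replicate 4. The leukocyte markers summed to 22.0 CPM there, the level of CDK4KO replicate 2 (22.0 CPM), and ITGAM, CD68 and C1QA were not analysed here. Of 7 dendritic and NK cell markers 1 was measured, KLRD1, at 1.36 CPM in that tumour, 0.954 to 1.61 CPM over all CDK4KO and 0.443 to 1.35 CPM over CDK4WT. Fibroblast markers summed to 682 CPM, the lowest of the 8 libraries, against 901 to 1178 CPM in the other CDK4KO and 775 to 1192 CPM in the CDK4WT tumours. The summed tumour-line markers were lowest there too, at 11966 CPM, against 13047 to 16491 CPM in the other CDK4KO and 13840 to 16585 CPM in the CDK4WT tumours. The part of these differences in the interferon genes was not tested, and how mouse reads were treated is not given in the sources used here.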

How the data were processed

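Tumour RNA was taken up in Trizol and sequenced as mRNA libraries, per the labels' protocols. The deposited table holds raw read counts per Ensembl gene, not normalized by the authors. The submitters' processing notes name cutadapt, STAR 2.7.11a, featureCounts 2.0.4, DESeq2 1.46.0 and hg38. The gene annotation, whether counting used strand, and what was done with mouse reads were not given in the sources used here. All 13546 genes exceed 1 CPM in at least 4 libraries. The CDK4KO columns were matched to replicates 1 to 4 through the library numbers in their names.

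Symbols were found for 13465 of 13546 identifiers, and coordinates and exon lengths (all annotated exons merged) in GENCODE 29, of the same build. The values of 1 gene in the pathway lists are not reported here. CPM values are scaled by TMM. The test of CDK4KO against CDK4WT was edgeR 4.0.16 under R 4.3.3 (filterByExpr, which removed 0 genes, TMM, robust quasi-likelihood test, Benjamini-Hochberg over all genes, threshold 0.05), and each SE was derived from its F statistic. Log2 CPM used a prior count of 2. Alternatives were DESeq2 1.42.0, limma 3.58.1 (voom with library weights), other scalings and filters, non-robust dispersions, a replicate block, and leaving libraries out. The edgeR, DESeq2 and voom fits were tested on simulated counts with known fold changes, in which no library was set apart. The other steps were not part of that test.

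The members and gene lists were chosen with earlier results of these data known. Values per tumour were given for the 8 members of smallest p, those with a library 1 or more from the others, the 4 most and 2 least abundant by mean CPM, and STAT2, IRF9, ISG15, IFITM2 and IFITM3. Other genes with values per tumour (IRF1, IFIH1, IFIT1, IFIT3, BST2, IFI44, IFI27 and the pathway genes OASL, HERC5, GBP4, HERC6, DHX58, MX2 and DDX60L) were added after their values were seen. Since separate animals are not stated, p-values cover the spread among these 8 libraries alone, which may be technical.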

Additional observations from a re-analysis of the deposited data

Results flagged for a closer look

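A library stood apart from the other 3 of its genotype in 9 of 72 groups of 4 values of members tested, where the gap to the nearest library divided by the whole range exceeded the critical 95% value of Dixon's test. For values that vary independently, chance gives about 1 in 20, or 3.6 groups. The members vary together and the share over all genes was not computed, so the count is given as a description. In 4 of the 9 the library was CDK4KO replicate 4, the highest of its genotype in IFIH1 (ratio 0.974), OAS3 (0.908), IRF1 (0.861) and MX1 (0.847). IFITM1 had CDK4KO replicate 1 apart as the highest (0.948) and CDK4WT replicate 2 apart as the lowest (0.881). Among CDK4WT tumours, replicate 3 was highest and apart in PARP14 (0.956) and IRF1 (0.862), and replicate 4 in IRF7 (0.88). MX2, a gene outside the list named after its values were seen, also had CDK4KO replicate 4 apart as the highest (0.862).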

How the results depend on the processing

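Of 646 recomputed log2 fold changes of single members, 604 kept their direction and side of the threshold, 40 changed direction and 2 newly passed. The DESeq2 and voom fits without CDK4KO replicate 4, added after the data were seen, are not among the 646. The members they called are given below. Over all genes, edgeR called 8. The count was 315 with DESeq2, 285 with limma voom, 14 with library size scaling and 13 with the replicate block, and 0 to 183 when each library was left out. It was 331 (DESeq2) and 1024 (voom) without CDK4KO replicate 4, and 447 (edgeR) without CDK4KO replicates 1 and 4. Members called stayed at 0 with each library left out and with the replicate block, and were 4 (DESeq2) and 7 (voom) without CDK4KO replicate 4 and 2 (IFIT2 and IFIT3, both lower in CDK4KO) without CDK4KO replicates 1 and 4. Members with an unadjusted p under 0.05, 4 with all libraries against 13.0% of all genes, were 9 with voom (20.8%), 9 (DESeq2, 13.3%) and 11 (voom, 26.7%) without CDK4KO replicate 4, 13 without replicates 1 and 4 (20%), and 3 to 9 with each library left out (9 without CDK4KO replicate 4, 13.5%). Members whose genotypes did not overlap, 3 with all libraries against 7.68% of all genes, were 1 with a filter at CPM 5 (848 of 11082 genes), 1 with library size scaling (7.14%), 16 without CDK4KO replicates 1 and 4 (31.4%), and 2 to 7 with each library left out (7 without CDK4KO replicate 4, 13.0%). The median member fold change stayed between -0.07 and 0.06.

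With voom the log2 fold change turned negative in DDX60 (-0.16), ISG15 (-0.18), MX1 (-0.19), IFI27 (-0.05), PARP9 (-0.04), SP110 (-0.06) and IFITM3 (-0.01). Without CDK4KO replicates 1 and 4 it was -0.29 in DDX60, -0.36 in ISG15, -0.39 in MX1, -0.23 in IFI27, -0.18 in PARP9, -0.04 in SP110, -0.07 in IFITM3 and -0.03 in OAS1. With each library left out the sign changed in 12 members, whose ranges were IRF9 -0.14 to 0.04, IRF3 -0.1 to 0.06, IFIH1 -0.31 to 0.03, DDX60 -0.24 to 0.24, IFIT5 -0.02 to 0.03, IFITM2 -0.04 to 0.05, IFITM3 -0.02 to 0.05, BST2 -0.2 to 0.07, ISG15 -0.23 to 0.28, PARP9 -0.1 to 0.15, MX1 -0.35 to 0.45 and SP110 -0.06 to 0.09. The cause was not tested. Same-numbered libraries of the genotypes deviated together with r of -0.031, -0.014, 0.003 and 0.194. Differently numbered libraries were not compared, so whether the numbers pair them was not tested. Shares in parentheses are over all genes in the same fit. Among the members, the lowest counts, 85 to 289 reads for MX1 and 100 to 169 for RIGI, limit those genes most. Outside the list some counts were lower still, with 15 to 81 reads per library for IFNLR1, 31 to 62 for IL10RB and 38 to 104 for MX2.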
